A study of Mus musculus with 3 samples.

Results

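The Usp17l genes Usp17la, Usp17lb, Usp17lc, Usp17ld and Usp17le were examined in YTHDF2 RNA immunoprecipitation sequencing (RIP-seq) of mouse embryonic stem cells (ESCs). They were taken by gene symbol from the count table, and all 5 of the 49997 genes listed there under these symbols passed the filter on low counts, which left 19601 genes. The series held 1 input library and 2 YTHDF2 immunoprecipitation (IP) libraries, all from E14 ESCs given doxycycline (Dox) for 24 h. In the cell system of the study, Dox switches on a Dux transgene, and a Mervl promoter drives tdTomato, so every library came from cells exposed to the inducer and no uninduced cells were compared. No control-antibody IP was analysed here. Because the input was a single library, every test below takes its error from the pair of IP libraries, whose difference may be technical.

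USP17 proteins, first described in mice as DUB proteins, are deubiquitinases that remove ubiquitin from other proteins through a catalytic cysteine. Their genes form a repeated family, and in ESCs they are among the transcripts that mark the state resembling the 2-cell (2C) embryo, together with the Zscan4 genes. YTHDF2 is a cytoplasmic reader of N6-methyladenosine (m6A) that promotes the decay of the RNAs it binds. In RIP-seq, a transcript more abundant in the IP than in the input relative to other transcripts is called enriched.

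All 5 genes lie on chromosome 7 of GRCm38 (mm10), and no exon of another gene overlapped theirs. Usp17ld (chr7:103250086-103252505, minus strand, also called Dub2a) and Usp17lc (chr7:103416696-103419174, plus strand, Dub2) lay 164.2 kb apart. The others followed after a gap of 1348.8 kb, in the order Usp17le (chr7:104767961-104777470, minus strand, Dub3), Usp17lb (chr7:104840257-104842583, minus strand, Dub1a) and Usp17la (chr7:104857016-104862667, plus strand, Dub1). Usp17lb and Usp17la were the closest neighbours, 14.4 kb apart. The exonic length ran from 1541 bases in Usp17lb to 2649 bases in Usp17la, and the coding length from 1407 bases in Usp17lb to 1638 bases in Usp17lc and Usp17ld. A single exon held between 92.0% and 98.3% of the coding sequence of each gene.

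The coding sequences were close copies of each other. Across an alignment of all 5, 1407 columns held a base in every gene, and 1211 of these columns (86.1%) were identical. A 60-base coding stretch from the reference is shown because it is the same in all members, so that a short read inside it cannot be assigned to one of them.
Usp17la, chr7:104860379-104860438, plus strand: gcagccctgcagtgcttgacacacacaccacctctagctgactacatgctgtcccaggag

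The 60-base stretch with the most differences is shown for contrast, with the 20 columns that vary among the members in capitals.
Usp17la, chr7:104861533-104861592, plus strand: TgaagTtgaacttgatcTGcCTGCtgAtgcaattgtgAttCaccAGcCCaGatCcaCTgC
Usp17lb, chr7:104840319-104840378, minus strand: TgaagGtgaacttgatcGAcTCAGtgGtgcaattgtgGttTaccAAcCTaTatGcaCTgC
Usp17lc, chr7:103418900-103418959, plus strand: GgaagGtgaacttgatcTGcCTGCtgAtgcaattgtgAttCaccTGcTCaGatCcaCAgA
Usp17ld, chr7:103250264-103250323, minus strand: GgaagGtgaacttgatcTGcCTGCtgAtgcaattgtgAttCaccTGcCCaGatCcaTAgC
Usp17le, chr7:104768429-104768488, minus strand: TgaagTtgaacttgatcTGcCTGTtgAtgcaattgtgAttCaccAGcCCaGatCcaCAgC

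Usp17lc and Usp17ld were the most alike, with 98.4% identity and 26 differing bases over 1638. Every one of the 26 differences lay after coding base 812, counted from the start codon, so the first 812 coding bases of both genes were the same. The other pairs shared between 91.2% and 94.7% of their aligned coding bases.

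This likeness bears on the counts, since reads that mapped to several places were left out. Of all windows of 150 bases, the read length, along the merged exons, 98.5% in Usp17la, 97.7% in Usp17lb and 99.3% in Usp17le occurred once on the assembled chromosomes. The share was 57.2% in Usp17lc and 55.5% in Usp17ld. Uniquely placed reads of Usp17lc and Usp17ld could therefore come mostly from the 3′ part of their coding sequence, whereas those of the other members could come from nearly the whole transcript. Windows were matched exactly and as single reads, so a mate in unique sequence was not considered.

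**Figure D1:**
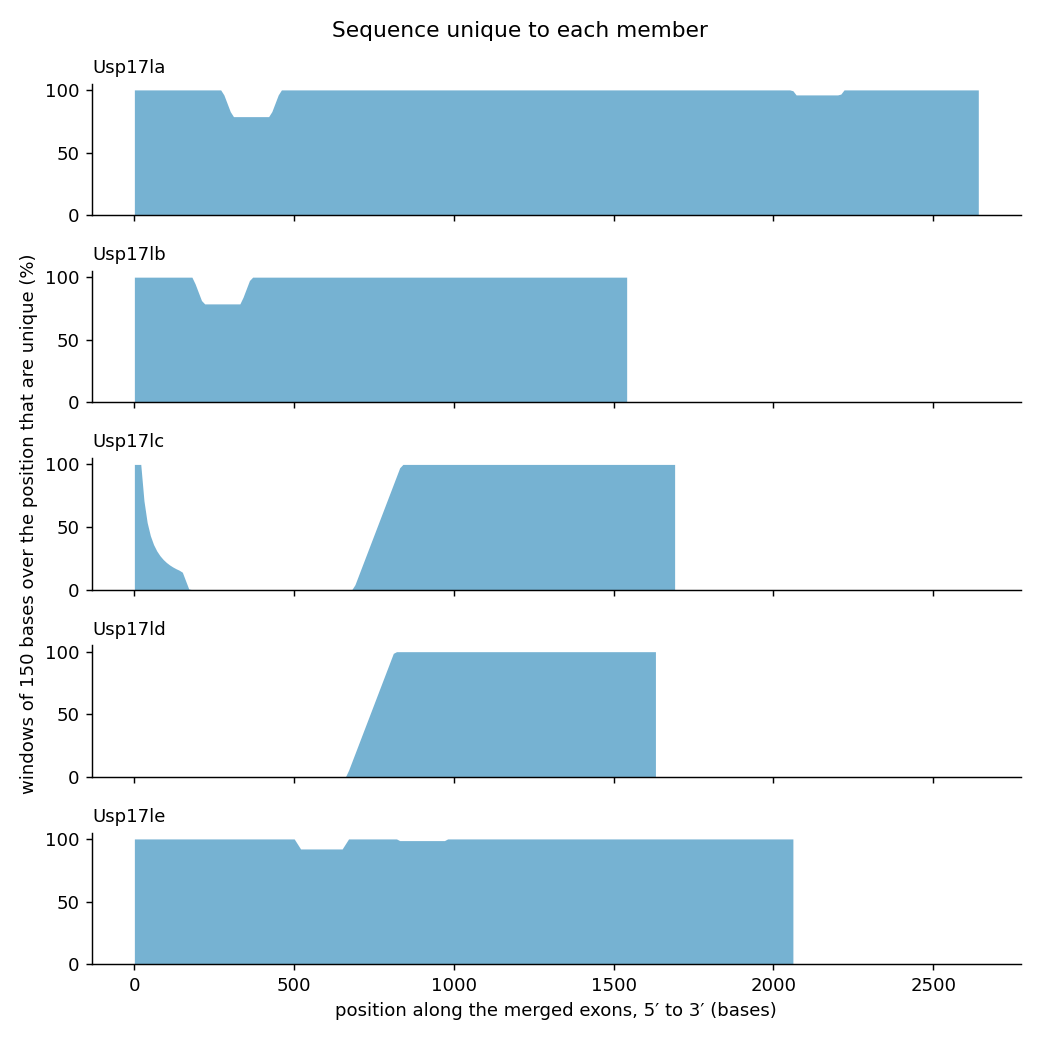
Share of the 150-base windows over each position that are unique on the assembled chromosomes (y axis, percent) along the merged exons of each Usp17l gene (x axis, bases from the 5′ end). Usp17la, Usp17lb and Usp17le are unique nearly throughout, whereas Usp17lc and Usp17ld have an upstream stretch with no unique window.

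The library totals ran from 35259827 to 36986994 counts. The ESC markers Pou5f1, Sox2, Nanog, Klf4, Zfp42, Esrrb, Tfcp2l1 and Dppa5a summed to between 8014 and 8125 CPM (counts scaled to a common library size after TMM) in the 3 libraries. The 2C-like markers Zscan4c, Zscan4d, Tcstv1, Tcstv3 and Zfp352 summed to 1491 CPM in the input, below the 2468 and 2459 CPM of the IP libraries, and none was at 0. Zscan4c and Zscan4d made up most of this sum, and other 2C transcripts, such as Zscan4e, were lower in the IP, as given with the list of 2C transcripts. The 10 markers of other lineages summed to between 40.8 and 53.2 CPM.

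To determine how abundant the family was, its counts were set against each library. The 5 genes held 46029 input counts, and 42746 and 44730 counts in IP replicates 1 and 2. This was 0.124% of the counts for the input, with a 95% Wilson interval from 0.123% to 0.126%. The share was 0.121% for IP replicate 1 (0.120% to 0.122%), and for IP replicate 2 it was 0.1246% (0.1235% to 0.1258%). Intervals cover counting error only, and are too narrow since both mates of a pair were counted. In such bulk libraries, the part of the level due to the number of cells in the 2C-like state cannot be told apart from that due to the RNA per cell. The input lay between the IP libraries in this share, but with mitochondrial genes left out of the totals it was above both, at 0.1266% against 0.1213% and 0.1247%. After TMM scaling, which corrects for differences in composition between libraries, the summed level was 1302 CPM in the input, above the 1184 and 1221 CPM of the IP libraries. With the single input, no test was made of the sum.

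Levels of the members were compared per kb of exon. In the input, Usp17le was the highest at 265.6 CPM per kb, followed by Usp17lb at 201.6, Usp17la at 109.1, Usp17lc at 51.02 and Usp17ld at 40.5 CPM per kb. The corresponding levels in the IP libraries (mean ± SD, n = 2) were 213.5 ± 5.52 for Usp17le, 227.2 ± 2.85 for Usp17lb, 107.5 ± 3.53 for Usp17la, 45.2 ± 0.62 for Usp17lc and 30.6 ± 1.16 for Usp17ld. Usp17le was thus above Usp17lb in the input and below it in both IP libraries, while the order of the other members was the same in all 3 libraries. Counting only exonic length with unique windows, the input levels of Usp17lc and Usp17ld were 89.3 and 73.0 CPM per kb, and the ratio of the highest to the lowest member fell from 6.56 to 3.67. All members were abundant transcripts. Among tested genes ranked by CPM per kb, they stood between percentiles 89.6 and 98.6 in the input and between percentiles 86.1 and 98.5 in the IP libraries.

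**Figure D2:**
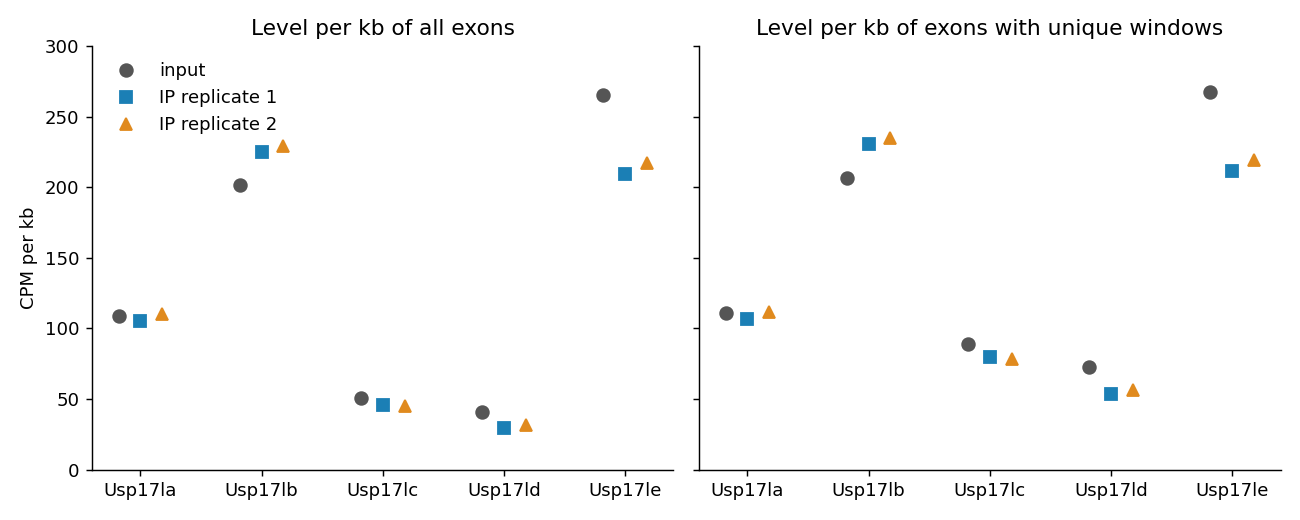
Level of each Usp17l gene in the input and in both IP libraries, in CPM per kb of all exons (left) and per kb of exons with unique windows (right), with 1 point per library. Usp17le leads in the input and Usp17lb in both IP libraries, and Usp17lc and Usp17ld move up when only unique sequence is counted.

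To examine whether the Usp17l transcripts were pulled down by YTHDF2, both IP libraries were tested against the input over all 19601 genes, using edgeR (quasi-likelihood F test, Benjamini-Hochberg adjustment). With a cutoff of 0.05 on the adjusted p and of 2 on the fold change, none of the 5 members was enriched or depleted. The fold is the threshold of the study for IP over total RNA. Among all tested genes, 15% were enriched and 13% depleted by this rule. DESeq2 also gave 0 members in either direction. At any fold change, 1 member was higher in the IP and 3 were lower (28.4% and 28.9% of all tested genes), and 4 members had an unadjusted p under 0.05. The median log2 fold change was −0.18 over the members and 0.01 over all tested genes.

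Usp17la, the member known as Dub1, was the one closest to the input. The input gave 10220 counts (289.0 CPM), IP replicate 1 gave 10036 (278.1 CPM) and IP replicate 2 gave 10670 (291.3 CPM). The input lay between the IP libraries. With a log2 fold change of −0.02 ± 0.057 (SE), Usp17la did not pass the test (edgeR adjusted p = 0.774). The study reported Usp17la among the transcripts bound by YTHDF2, from RIP-seq binding peaks and from RT-qPCR after IP. It also reported slower decay of this RNA after YTHDF2 depletion. The ratio here is of counts over the whole gene against a single input, a different measure from peaks or qPCR.

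Usp17lb, known as Dub1a, was the member higher in the IP. The IP levels were 347.0 and 353.2 CPM against 310.7 CPM in the input, from 12522, 12936 and 10986 counts. Both IP libraries lay above the input, by a log2 fold change of 0.17 ± 0.055 (SE, edgeR adjusted p = 0.00704), which is a fold of 1.13. The call was lost when a trend of the fold change with GC content (adjusted p = 0.0784) or with exonic length (adjusted p = 0.168) was removed.

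Usp17lc, known as Dub2, had 3062 input counts, against 2793 and 2780 counts in IP replicates 1 and 2. Both IP libraries lay below the input, at 77.4 and 75.9 CPM against 86.6 CPM. The log2 fold change was −0.18 ± 0.076 (SE, edgeR adjusted p = 0.0458), and the call was lost by the Wald test of DESeq2 (adjusted p = 0.212), by scaling to library totals (adjusted p = 0.385) and with no filter on low counts (adjusted p = 0.121).

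Usp17ld, known as Dub2a, had 2346 input counts, against 1759 and 1884 counts in IP replicates 1 and 2. The IP levels of 48.7 and 51.4 CPM were both below the 66.3 CPM of the input. It had the lowest log2 fold change of the family, −0.41 ± 0.089 (SE, edgeR adjusted p = 0.000145), a fold of 0.755. The call was lost with a fixed dispersion of 0.1 (adjusted p = 0.666).

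Usp17le, known as Dub3, was the most abundant member of the input, with 19415 counts there and 15636 and 16460 counts in the IP libraries. The IP levels of 433.2 and 449.4 CPM both lay below the 549.0 CPM of the input. The log2 fold change was −0.31 ± 0.052 (SE, edgeR adjusted p = 1.77e-06), a fold of 0.804. This call too was lost with the fixed dispersion (adjusted p = 0.748), as were those of Usp17lb (0.873) and Usp17lc (0.868).

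The single-library log2 ratios of a member differed by between 0.03 and 0.08, and the fitted log2 fold changes ran over a range of 0.58 among members. Both ratios of a member share the single input, so its error cancels from the first of these values but not from the second, and a shared sign is no independent repeat. Usp17la had ratios of −0.06 and 0.01. Of all tested genes, 28.2% had an absolute log2 fold change no larger than that of Usp17ld, the largest in the family.

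**Figure D3:**
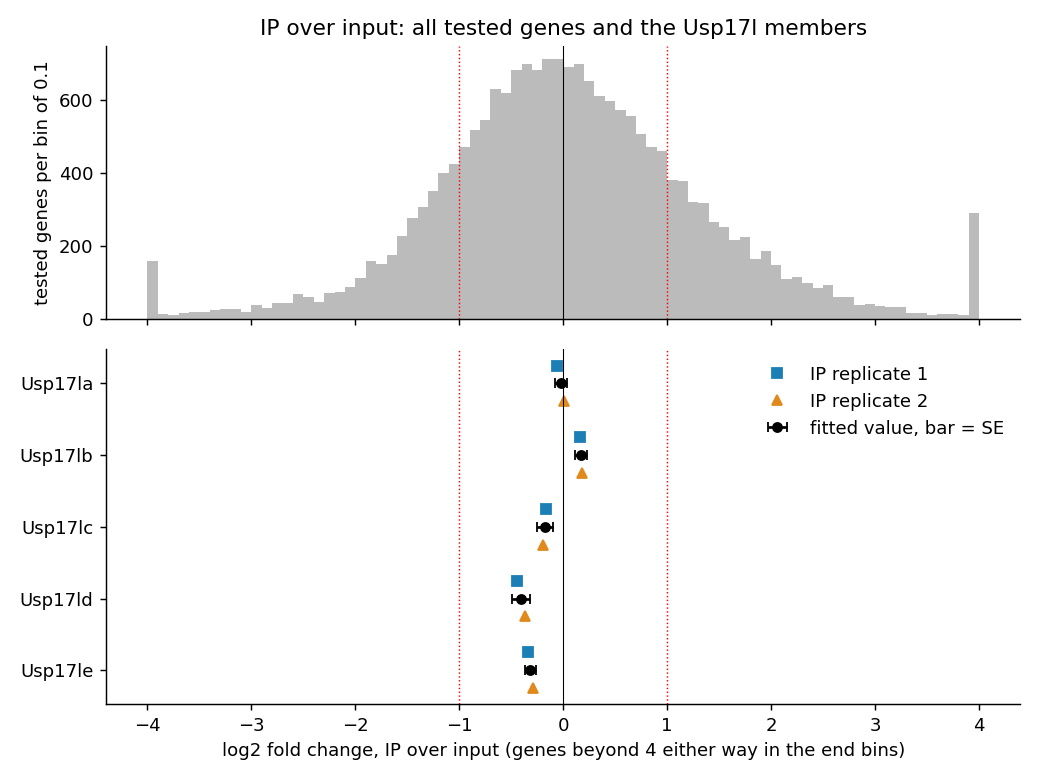
Log2 fold change of IP over input for all 19601 tested genes (upper panel, genes per bin) and for each Usp17l gene (lower panel, circles with SE bars for the fitted value, squares and triangles for single IP libraries). The dotted lines mark a fold change of 2, and all 5 members lie between them, from −0.41 to 0.17.

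The make-up of the family was then compared between libraries, as a description with no test. Usp17le gave 42.2% of the family's counts in the input (95% Wilson interval 41.7% to 42.6%) but 36.58% in IP replicate 1 (36.12% to 37.04%) and 36.8% in IP replicate 2 (36.4% to 37.3%). Usp17lb held 23.9% in the input (23.5% to 24.3%), and 29.3% (28.9% to 29.7%) and 28.9% (28.5% to 29.3%) in the IP libraries. Usp17la held 22.2%, 23.5% and 23.9%, Usp17lc 6.65%, 6.53% and 6.22%, and Usp17ld 5.10%, 4.12% and 4.21% of the family in the input, IP replicate 1 and IP replicate 2. There were 0.566 counts of Usp17lb per count of Usp17le in the input, against 0.801 and 0.786 in IP replicates 1 and 2. Such ratios within a library do not depend on how libraries were scaled. For the near-identical pair, there were 1.31 counts of Usp17lc per count of Usp17ld in the input (exact 95% interval 1.24 to 1.38), 1.59 in IP replicate 1 (1.495 to 1.69) and 1.48 in IP replicate 2 (1.39 to 1.57). The number of 150-base windows shared within the family was 663 in both genes.

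**Figure D4:**
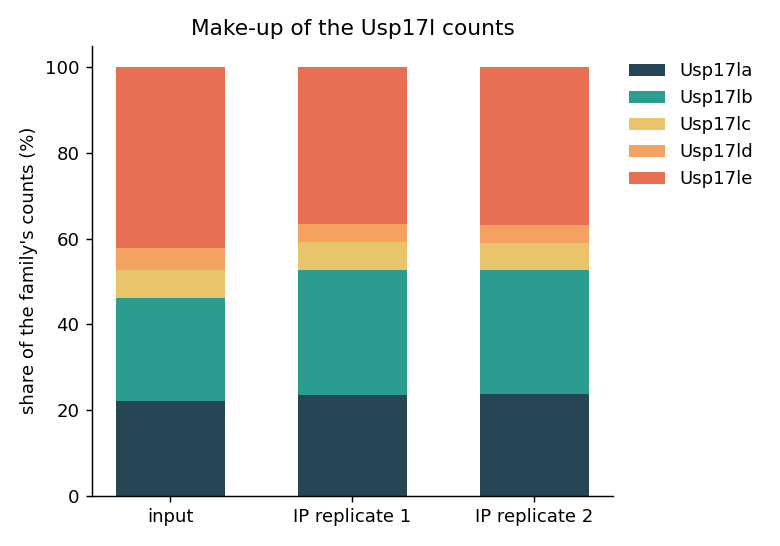
Share of the family's counts held by each Usp17l gene (y axis, percent) in the input and in both IP libraries. The Usp17le part is smaller in both IP libraries (36.6% and 36.8%) than in the input (42.2%), and the Usp17lb part is larger (29.3% and 28.9% against 23.9%).

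Sequence features not used to choose the genes were then set beside these values. m6A is commonly placed in GGACT and in related motifs, so GGACN, with any base but G as N, was searched on the transcript strand of the merged exons. GGACT was in none of the annotated exons of the 5 members. Little sequence is annotated 3′ of the stop codon in Usp17ld (0 bases), Usp17lc (37) and Usp17lb (55), and sequence like that of the family ran on past the annotated 3′ end for 689 bases in Usp17ld, 650 in Usp17lc, 509 in Usp17le and 115 in Usp17lb, which was not searched. Of the 4350 tested genes with between 1500 and 2700 exonic bases, 10.6% also had no GGACT in their annotated exons. The motifs that end in another base occurred 8 times in Usp17la, 6 in Usp17lb, 7 in Usp17lc, 7 in Usp17ld and 6 in Usp17le. Per kb this was between 2.90 in Usp17le and 4.27 in Usp17ld, against a median of 3.51 for all of these motifs together over all tested genes. Usp17lb, the member higher in the IP, had 3.89 per kb, below Usp17lc (4.12) and Usp17ld (4.27) and above Usp17la (3.02) and Usp17le (2.90). A pair of these motifs stood at the same place in the coding sequence of all 5 members. The GGACA site is shown with 30 bases around it, the motif in capitals.
Usp17la, chr7:104861093-104861122, plus strand: acttctcacagtGGACAttacttctgttgt
Usp17lb, chr7:104840786-104840815, minus strand: acttgtcacagtGGACAttacttctgttgt
Usp17lc, chr7:103418403-103418432, plus strand: acttgtcacagtGGACAttacttctcttat
Usp17ld, chr7:103250791-103250820, minus strand: acttgtcacagtGGACAttacttctcttat
Usp17le, chr7:104768899-104768928, minus strand: acttctaacagtGGACAttacttctgttgt

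A motif match is a description of the letters, and methylation was not measured in these libraries. The wider DRACH motif of the study, of which the motifs searched here are a part, was not counted. By m6A IP followed by RT-qPCR, the study reported Usp17la mRNA as methylated with and without Dox. The GC content of the members lay between 47.4% and 50.7%, with a median of 49.7% over tested genes. They had between 1.13 and 1.94 exons per kb, all under the median of 2.47.

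Other 2C transcripts were compared in the same fit. Of 37 tested genes in that list, 1 was enriched and 3 were depleted over 2-fold, and 20 were higher and 9 lower at any fold change. Among all tested genes, 15% were enriched and 13% depleted over 2-fold, and 28.4% were higher and 28.9% lower at any fold. Their median log2 fold change was 0.40, against 0.01 over all tested genes and −0.18 over the Usp17l genes. Among those with a mean of at least 1 CPM, the highest were Zscan4c, a zinc finger gene of the 2C-like state (log2 fold change 1.14 ± 0.050 SE), and Gm5039 (0.99 ± 0.054). By the same limit, the lowest were Ubtfl1, a gene of the preimplantation embryo (−1.54 ± 0.144), and Zscan4e (−1.47 ± 0.057). Members of 1 repeated family thus lay on both sides of the input in the Zscan4 genes too. Multi-mapping reads were left out for these genes as well, and the unique share of their windows was not computed. The adjusted p of each of these 4 genes was at most 6.83e-12 by edgeR.

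Genes whose symbol begins with Usp and a digit, mostly other ubiquitin-specific proteases, gave 2 enriched and 12 depleted of 49 tested, with a median log2 fold change of −0.11. Over all tested genes, 15% were enriched and 13% depleted. Usp29 (1.38 ± 0.371 SE) and Usp6nl, which is named for its likeness to a protease gene (1.04 ± 0.096), were the highest. Usp22, the deubiquitinase of the SAGA complex (−4.16 ± 0.123), and Usp26 (−2.13 ± 0.139) were the lowest. The relatives Usp36 and Usp42 were both higher in the IP, with log2 fold changes of 0.54 ± 0.076 and 0.46 ± 0.091 (edgeR adjusted p = 9.11e-08 and 3.4e-05).

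Around the family, 158 other genes lay within 500 kb of a member, and 120 of these were olfactory receptor genes (Olfr). No Olfr gene passed the filter, 112 had no count in any library, and the highest count of the rest in a library was 8. Of the other 38 genes, 6 were tested, with 0 enriched and 0 depleted over 2-fold and 1 lower at any fold change. Over all tested genes, these shares were 15%, 13% and 28.9%. Trim12c (−0.04 ± 0.194 SE) and Gm5900 (−0.25 ± 0.203) were the highest of those with at least 1 CPM, and Trim34b (−1.11 ± 0.506, edgeR adjusted p = 0.0602) and Dnajc19-ps (−0.73 ± 0.307, adjusted p = 0.0401) the lowest. The pseudogene Usp17le-ps had 1, 1 and 0 counts in the input, IP replicate 1 and IP replicate 2, within the floor of 3 counts, and Gm5053, which carries family sequence, had 231, 357 and 568 counts.

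The transcripts of proteins described as substrates of USP17 or DUB3 gave 1 enriched and 1 depleted of 11 tested, with 7 higher and 3 lower at any fold change. The shares over all tested genes were 15% enriched and 13% depleted, with 28.4% higher and 28.9% lower at any fold. H2ax, a histone variant of the DNA damage response, was 6.33-fold higher in the IP (log2 fold change 2.66 ± 0.047 SE), and Ccna2, which encodes cyclin A, was lower (−1.14 ± 0.061). Yap1, a Hippo pathway coactivator (0.98 ± 0.060), Suds3, a subunit of the SIN3 complex (0.69 ± 0.064), Snai1, a transcriptional repressor (0.53 ± 0.113), Ddx58, an RNA sensor (0.32 ± 0.138), and Cdc25a, a cell cycle phosphatase (0.24 ± 0.067), were higher. Hdac2, a histone deacetylase (−0.32 ± 0.061), and Kmt5a, a histone methyltransferase (−0.17 ± 0.063), were lower. Rce1, a CAAX protease, had a log2 fold change of 0.15 ± 0.107 and did not pass the test.

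Among the genes that encode ubiquitin itself, Ubb (−1.13 ± 0.048 SE) and Rps27a (−0.44 ± 0.049) were lower. Of the cytokine receptors, kinases and STAT transcription factors upstream of the Dub genes in blood cells, 8 were tested, with 0 past a fold change of 2, 3 higher and 2 lower at any fold change. Over all tested genes, 15% were enriched and 13% depleted past that fold, and 28.4% were higher and 28.9% lower at any fold.

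The genes most like each member over the 3 libraries were sought among 81 other 2C and Usp genes, by the Euclidean distance of centred log2 CPM. Usp12 (0.081) and Usp25 (0.083) were nearest to Usp17la, and Zscan4-ps2 (0.011) and Usp13 (0.029) to Usp17lb. Usp7 (0.019) and Usp48 (0.044) were nearest to Usp17lc, Usp53 (0.072) and Gm2016 (0.099) to Usp17ld, and Gm2016 (0.069) and Usp24 (0.091) to Usp17le. With 3 libraries, this measure mostly restates the ratio of IP to input.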

How the data were processed

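RIP-seq reads of 1 input and 2 YTHDF2 IP libraries were filtered and aligned by the authors, with fastp 0.19.4 and HISAT2 2.2.1 named in the submitters' processing notes, to mm10. The deposited values are raw counts per gene from featureCounts 2.0.3, per the file headers in paired-end mode without counting pairs, so each mate was counted singly. Strand was not used and multi-mapping reads were left out by default. The labels describe RNA extracted with Trizol before the IP, whereas the methods describe an IP from cleared lysate, and the counts cannot tell them apart.

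Counts were fitted in R 4.3.3 with edgeR 4.0.16 (filterByExpr, TMM, robust quasi-likelihood F test, Benjamini-Hochberg adjustment). The common dispersion was 0.00538, with 1 residual degree of freedom per gene. DESeq2 1.42.0 was an alternative. Each SE follows from the fitted change and its F statistic. Single-library ratios used 0.5 added to each count. Identity, windows and motifs came from the RefSeq annotation and sequence of GRCm38.p6. The script was tested on simulated data. The members and gene lists were chosen with earlier results of these data known. Named genes were the members, Usp36 and Usp42, the 2 highest and 2 lowest of the 2C, Usp and neighbouring genes with at least 1 CPM, the tested substrate and ubiquitin genes, of which some are not reported here, and the nearest genes. Gm5053 and Usp17le-ps were named after their values were seen.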

Additional observations from a re-analysis of the deposited data

How the results depend on the processing

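No paired analysis was possible because the input carries no replicate number and is a single library. No member passed a fold change of 2 under any of the 9 alternatives with a test. With a fixed dispersion of 0.1, 0 members were higher and 0 lower at any fold change, with log2 fold changes of 0.17 for Usp17lb (adjusted p = 0.873), −0.18 for Usp17lc (0.868), −0.41 for Usp17ld (0.666) and −0.31 for Usp17le (0.748), since the error is then set larger by construction. Usp17ld and Usp17le kept their calls in the other 8. Usp17lb was no longer called after removal of the GC trend (0.11) or the length trend (0.089), which left 0 members higher, and was 0.27 with library totals (adjusted p = 0.000175). Usp17lc was no longer called with library totals (−0.080), no filter (−0.15) or the DESeq2 Wald test (−0.17), whereas it was lower still with the GC trend (−0.28, adjusted p = 0.00209) or the length trend (−0.27, adjusted p = 0.00241) removed. Usp17la, never called, turned positive with library totals (0.074), no filter (0.0026) and the GC trend removed (0.11). Library totals moved the median of all genes to 0.10, and the causes of the other changes were not tested. Without 1 IP library, where no test is left, the values ran from −0.05 to 0.01 for Usp17la, 0.17 to 0.19 for Usp17lb, −0.19 to −0.16 for Usp17lc, −0.44 to −0.37 for Usp17ld and −0.34 to −0.29 for Usp17le. Leaving out mitochondrial genes moved the family's share of the input to 0.127%, above both IP libraries. With windows of 75 bases the unique share was 90.1% for Usp17la, 84.7% for Usp17lb, 48.8% for Usp17lc, 46.9% for Usp17ld and 85.0% for Usp17le, and with 300 bases it was 63.3% for Usp17lc, 61.7% for Usp17ld and 100% for the others. Across all genes, the fixed dispersion left 1577 enriched and 1531 depleted, against 2936 and 2543. Halving all counts, among these alternatives, scaled every library alike without adding counting noise, so it could not test the effect of depth. The single input leaves its own variation unmeasured.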
